A study of Mus musculus with 2 samples.

Results

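Cytosolic ribosomal protein genes encode the protein part of the ribosomes that translate nuclear mRNAs, and their UMIs (unique molecular identifiers, each a counted RNA molecule) were described here in single medullary thymic epithelial cells (mTECs). Members were the genes whose symbols start with Rps, Rpl or Rplp followed by a number, with the letter endings of that family, together with Rpsa, if they had at least 100 UMIs over all barcodes. Of 55487 genes in the table, 89 symbols matched and 85 passed the limit, 50 of the large (60S) and 35 of the small (40S) subunit. They held 15111723 of 158263030 gene UMIs, or 9.55%. Just inside the limit were Rps3a2 with 160 UMIs and Rpl32l with 244 UMIs, and outside it were Rpl3l with 94, Rpl39l with 36, Rps12l1 with 16 and Rpl10l with 5 UMIs. The GENCODE annotation of GRCm38 lists 80 members as protein coding, 4 as processed pseudogenes (Rpl6l, Rpl32l, Rps3a2 and Rps3a3) and Rps4l as a transcribed processed pseudogene, and it places them on 19 chromosomes.

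The cells came from the thymus of female wild-type C57BL/6J mice aged 4 weeks. Mice of the treated group had 7 daily intraperitoneal injections of the polyamine spermidine (15 mg/kg, dissolved in phosphate-buffered saline, PBS), and control mice had PBS alone. After removal of CD45-bearing blood cells on beads, 2 sorted fractions, mTEChi (in which Aire is expressed) and mTEClo of the post-Aire kind, were tagged with hashtag antibodies and run as 1 pool on the 10x Genomics 3' v3 chemistry. Hashtags HT2 and HT3 marked spermidine replicates 1 and 2, and HT4 and HT5 marked PBS replicates 1 and 2. The labels do not say that the replicates were separate mice, so tests measure the spread between hashed samples, which may be technical. After filtering, spermidine replicates 1 and 2 had 1374 and 1007 cells with 25673749 and 18230040 UMIs, and PBS replicates 1 and 2 had 1335 and 993 cells with 23172408 and 17668782 UMIs. Median UMIs per cell lay between 15736 and 17365, and no barcode occurred more than once among the 12139 in the files. When the unlabelled hashtags HT6 and HT7 were included in the hashtag calls, 897 of the 4709 cells used were doublets. With calls over these 6 hashtags the share difference given below was 1.87 percentage points in all kept cells and 1.41 in Aire-stage cells.

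Each cytosolic ribosome joins a small subunit, which reads the mRNA, to a large subunit, which forms the peptide bond, and the proteins of both are made in near-equal numbers. The family is a long-known marker of growth: dividing and biosynthetically active cells devote more of their mRNA to it, and the start of these mRNAs typically carries a cytosine followed by a run of pyrimidines, the TOP motif, through which mTOR signalling and LARP1 control their translation. In the thymus medulla, transit-amplifying mTECs divide and give rise to Aire-expressing cells, which later turn into mimetic cells that resemble tuft, microfold, neuroendocrine and other cells of peripheral organs.

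Start-site sequences are shown for 4 protein-coding members with long pyrimidine runs and for the paralogs Rps27 and Rps27l, whose levels departed from those of the rest of the family. Each stretch comes from RefSeq on GRCm38.p6, has 30 bases before and 20 bases from the annotated start, and reads 5′ to 3′ on the strand of the gene, with capitals marking a pyrimidine run that begins with C at the start.
Rpl15: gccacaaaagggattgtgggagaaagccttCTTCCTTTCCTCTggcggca
Rpl35: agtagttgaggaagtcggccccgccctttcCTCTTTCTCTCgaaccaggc
Rps10: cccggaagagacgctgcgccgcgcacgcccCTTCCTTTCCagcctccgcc
Rps6: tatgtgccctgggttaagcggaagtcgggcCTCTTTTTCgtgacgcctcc
Rps27: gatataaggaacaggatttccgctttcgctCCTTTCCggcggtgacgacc
Rps27l: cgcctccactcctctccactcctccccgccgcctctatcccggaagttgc
The stretches lie at chr14:18270967-18271016 for Rpl15, chr2:39005112-39005161 for Rpl35, chr17:27635225-27635274 for Rps10, chr4:86857348-86857397 for Rps6 and chr3:90213629-90213678 for Rps27, all on the minus strand, and at chr9:66946056-66946105 on the plus strand for Rps27l. The run was 13 bases long in Rpl15, 11 in Rpl35, 10 in Rps10, 9 in Rps6 and 7 in Rps27, and the annotated start of Rps27l opened with G.

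One or more start windows could be matched by symbol for 61 of the 85 members. In any of its windows, 14 of these members (23.0%) began with C and a pyrimidine run of at least 5 bases, against 3.01% of 27025 genes of the RefSeq table. The letters CCGGAAG, which hold the core bound by ETS-type factors, were present on either strand in a window of 250 bases before to 50 after a start in 41.0% of the 61 members, against 9.93% of all genes. The E-box CACGTG, which MYC can bind, was in such a window of 9.84% of the members and 8.09% of all genes. These letter matches describe the windows and say nothing of a factor's binding in these cells.

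Dividing mTECs carried the largest ribosomal protein share among the mTEC classes, and the mimetic classes other than muscle-like cells had smaller shares than Aire-stage and immature cells. Classes were clusters built without the member genes and named from marker lists, and a share is the member UMIs over all gene UMIs of the summed cells of a sample. In transit-amplifying-like cells, led by division genes such as Hmmr, Ccnb2, Cdc20 and Top2a, the share was 17.9% and 18.2% in the spermidine samples and 17.5% and 18.2% in the PBS samples. Aire-stage cells (900 cells in clusters 1 and 2) had 12.5% and 11.7% in the spermidine samples and 10.9% and 10.6% in the PBS samples. Immature cells, led by Scx, Gas1, Col6a2 and the immature mTEC gene Ccl21a, stood beside them. They had 13.1% and 11.9% in the spermidine samples and 11.1% and 11.4% in the PBS samples. Tuft-like cells, mimics of a chemosensory epithelial cell type, had 6.02% and 6.63% in the spermidine samples and 6.53% and 6.45% in the PBS samples. The hemoglobin gene Hbb-bs led the largest of the 3 tuft-like clusters, beside the tuft genes Dclk1 and Sh2d6. The 3 levels did not overlap in any sample: transit-amplifying-like cells stood above Aire-stage and immature cells, and these above tuft-like cells. The Aire-stage level joins cluster 2, with 12.8% to 14.4%, and cluster 1, with 7.21% to 7.86% over 424 of the 900 cells. Cluster 1 lay near the tuft-like level, and in PBS replicate 1 it had 7.75%, just below the 7.80% of tuft-like cluster 6.

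Among the other mimetic classes, muscle-like cells, led by Acta1 and Myog, stood apart with shares of 14.3% to 15.0% over the 4 samples, from 43 cells in all. Shares were 3.97% to 6.02% in enterocyte- or hepatocyte-like and 4.73% to 6.03% in microfold-like cells, 5.61% to 7.30% in neuroendocrine-like cells and 6.12% to 7.66% in keratinocyte- or secretory-like cells. Ciliated-like cells (58 cells) ranged from 7.0% to 8.74% and kallikrein-high cells, led by Klk1b26 and other kallikrein genes, from 6.36% to 8.10%. Neighbours in this order overlapped between samples. A pair of clusters kept their markers' name without a class name, because genes of another class stood among their leading genes: Aire-marker cluster 5 had 7.77% to 9.76% and tuft-marker cluster 3 had 4.62% to 5.80%. Of the residual blood cells, thymocyte-like cells ranged from 12.3% to 20.4% over 128 cells and myeloid-like cells from 12.7% to 16.4% over 85 cells, so the transit-amplifying-like class ranked first in 3 samples and second after thymocyte-like cells in spermidine replicate 2. Aire, a gene of mTECs, was present in the thymocyte-like cells at 334 and 26.7 CPM (UMIs per 1000000 gene UMIs of the summed cells) in the spermidine samples and at 286 and 553 CPM in the PBS samples, against 392 to 478 CPM in cluster 1. Their share was highest in the sample with the least Aire and lowest in the one with the most. Spermidine replicate 1 exceeded PBS replicate 1 in both share and Aire, so the orders were not fully opposite. The part of mTEC RNA in this share was not tested. Among the mTECs, Aire was at 771 to 909 CPM in the Aire-stage class and at 1029 to 1098 in its cluster 2. It was at 810 to 910 CPM in transit-amplifying-like cells and at 573 to 720 in Aire-marker cluster 5. Aire-stage and transit-amplifying-like cells thus overlapped in Aire, and the class names do not order the cells by it. Across the 15 classes the mean share had Pearson's r = 0.23 with the median UMIs per cell and r = -0.37 with the mitochondrial share, given as descriptions, since all classes share 1 run.

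**Figure D1:**
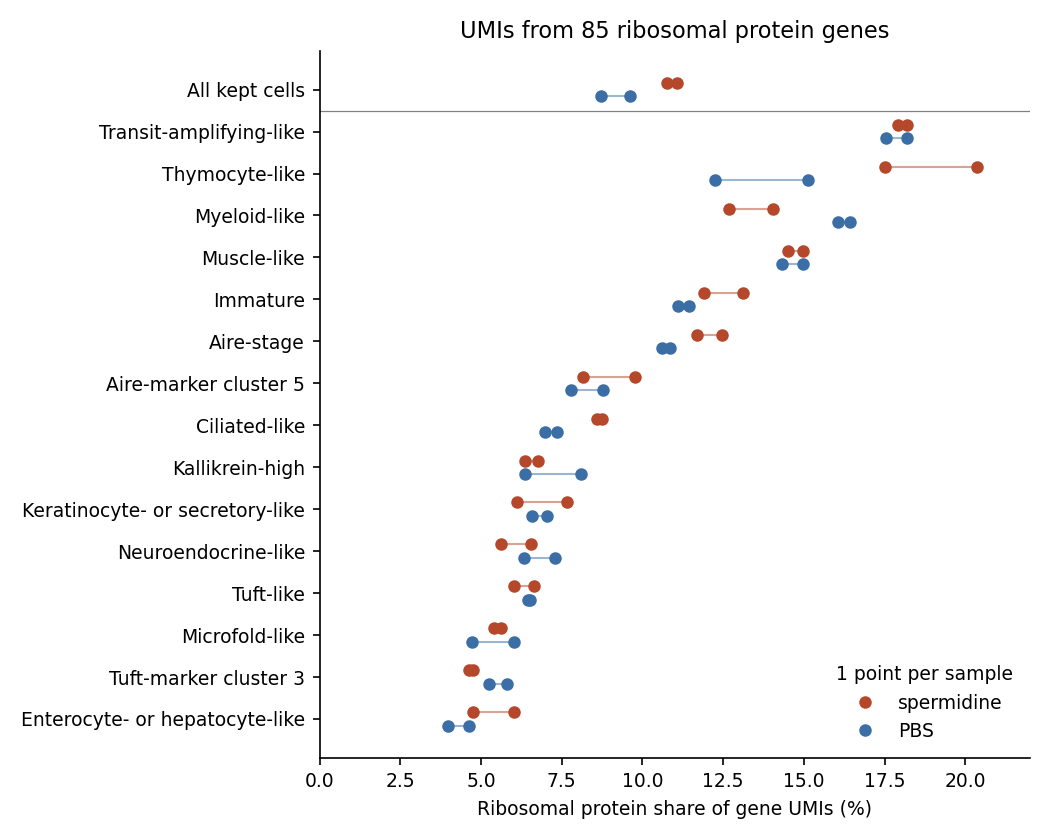
Share of gene UMIs from the 85 ribosomal protein genes (x axis, percent) for all kept cells and for each class (y axis, ordered by mean share), with 1 point per hashed sample and a line joining the 2 samples of a treatment. Transit-amplifying-like cells lie near 18% in every sample and tuft-like cells between 6.02% and 6.63%, while the spermidine and PBS points of all kept cells, Aire-stage and immature cells do not overlap.

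Nearly all members took part in this order. Of 81 members with at least 10 CPM in a class pair, 79 were higher in transit-amplifying-like than in tuft-like cells without overlap, with a median ratio of 3.01. This held for 32.6% of 9914 genes. Without overlap means that each sample of the higher class lay above every sample of the lower class. Likewise 79 were higher in transit-amplifying-like than in Aire-stage cells (median ratio 1.63, against 27.2% of 10211 genes) and 79 in Aire-stage than in tuft-like cells (median ratio 1.80, against 30.7% of 10584 genes). In each of these pairs the exceptions were Rps27 and Rps4l. Immature cells exceeded tuft-like cells for 78 members (median ratio 1.95, against 31.4% of 10121 genes), here with Rps24 as a further exception. Muscle-like cells exceeded tuft-like cells for 80 members (median ratio 2.45, against 21.3% of 9827 genes), all but Rps27. Immature and Aire-stage cells were near each other, with a median ratio of 1.07. Without overlap, 17 of 81 members were higher in immature cells, against 36.2% of 10664 genes, and 7 were lower, against 24.9%. Both counts lay below these shares of all genes.

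**Figure D2:**
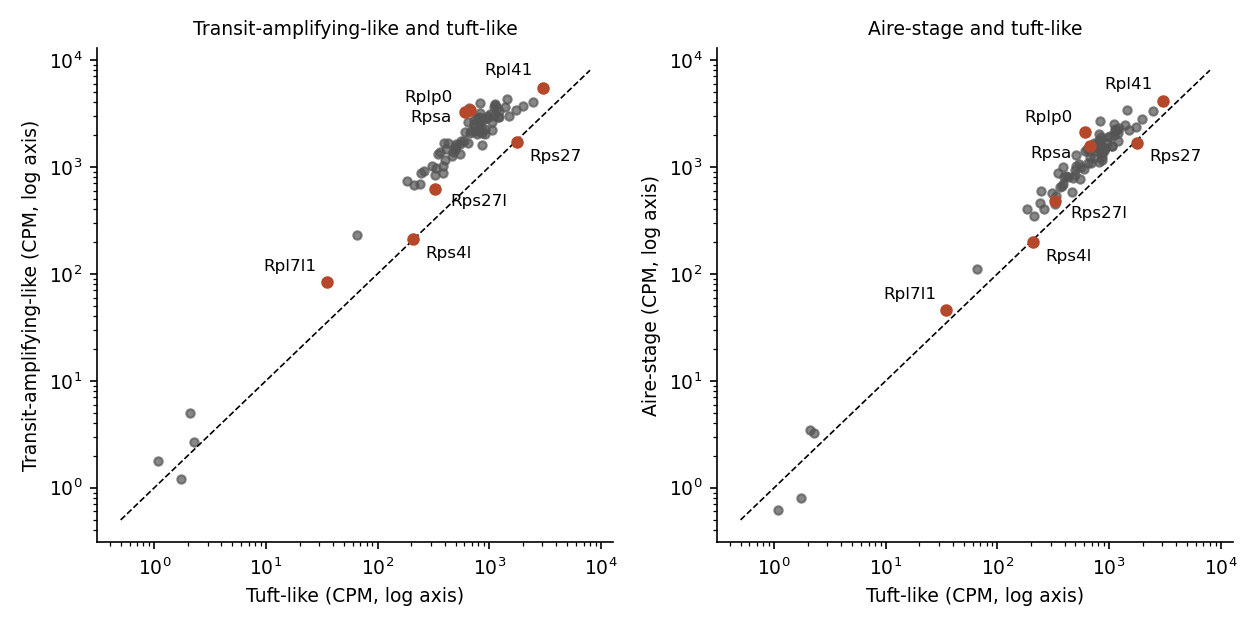
Level of each of the 85 members in CPM (log axes), averaged over the 4 hashed samples, in transit-amplifying-like cells against tuft-like cells (left) and in Aire-stage cells against tuft-like cells (right), with the dashed line marking equal levels. Most members lie above the line, Rplp0 and Rpsa far above it, and Rps27 and Rps4l on it.

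The structural members of the 40S subunit showed the range of these differences. Rpsa, a 40S protein that was first described as a laminin receptor precursor, was among the most contrasted. It had 3500 and 3392 CPM in transit-amplifying-like cells of the spermidine samples and 3362 and 3450 in those of the PBS samples. In tuft-like cells it had 668 and 704 CPM in the spermidine samples and 691 and 656 in the PBS samples, which gives a ratio of the means of 5.04 without overlap. Rps6, the 40S protein that is phosphorylated downstream of mTOR, averaged 733 ± 19.2 CPM in transit-amplifying-like cells and 184 ± 14.8 in tuft-like cells (SD, n = 4). Rps24 and Rps29, both abundant 40S members, were less contrasted: Rps24 averaged 4042 ± 34.1 in transit-amplifying-like and 2482 ± 135 in tuft-like cells, and Rps29 averaged 3678 ± 95.3 and 1989 ± 70.9 (CPM, SD, n = 4). Rps27a, which is made as a fusion with ubiquitin, averaged 3525 ± 83.5 in transit-amplifying-like, 2205 ± 187 in Aire-stage and 1169 ± 60.6 in tuft-like cells (CPM, SD, n = 4).

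In the 60S subunit the P stalk, which recruits the elongation factors, differed unevenly between classes. Rplp0, the base of the stalk, had 3292 and 3312 CPM in transit-amplifying-like cells of the spermidine samples and 3157 and 3254 in those of the PBS samples. Its tuft-like levels were 547 and 665 CPM in the spermidine samples and 614 and 624 in the PBS samples, a ratio of the means of 5.31. Its partner Rplp1 averaged 3595 ± 66.4 CPM in transit-amplifying-like and 1380 ± 95.8 in tuft-like cells, and Rplp2 averaged 2736 ± 71.1 and 819 ± 49.9 (SD, n = 4). Rpl41, which encodes a very short basic peptide and had the most UMIs of the family, averaged 5510 ± 176 CPM in transit-amplifying-like, 4099 ± 186 in Aire-stage and 3060 ± 156 in tuft-like cells (SD, n = 4), a smaller contrast than that of most members. Rpl39, which lines the exit tunnel, averaged 4330 ± 121 in transit-amplifying-like and 1441 ± 68.5 in tuft-like cells, and Rpl3, near the peptidyl transferase centre, averaged 2173 ± 23.0 and 690 ± 42.2 (CPM, SD, n = 4). Rpl10, which joins the 60S subunit late in its assembly, averaged 1620 ± 30.6 in transit-amplifying-like and 502 ± 30.1 in tuft-like cells (CPM, SD, n = 4).

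Members that followed the family share most closely across classes were Rpl28, Rpl17, Rpl21, Rps10 and Rpl35a, whose log2 levels varied by SDs of 0.069, 0.072, 0.096, 0.10 and 0.10 around it. Rpl28 averaged 2957 ± 62.8 CPM in transit-amplifying-like, 1901 ± 165 in Aire-stage and 985 ± 61.0 in tuft-like cells (SD, n = 4). The least close were Rps4l, Rps27l, Rps27, Rpl7l1 and Rpl41, with SDs of 1.08, 0.77, 0.44, 0.41 and 0.37. Of the 85 members, 26 had their highest class level in transit-amplifying-like cells in all 4 samples and 1 had it in ciliated-like cells, whereas the highest class of the other 58 varied between samples. Transit-amplifying-like cells were highest for 49 and 30 members in the spermidine samples and for 48 and 61 in the PBS samples. Of the residual blood cells, thymocyte-like cells were highest for 29 and 48 in the spermidine samples, and myeloid-like cells for 23 and 18 in the PBS samples.

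The member with its highest level in ciliated-like cells in all samples was Rps27l, a paralog of Rps27 known as a target of p53. Rps27l had 890 and 1112 CPM in ciliated-like cells of the spermidine samples and 974 and 737 in those of the PBS samples. In transit-amplifying-like cells it averaged 622 ± 26.7, in Aire-stage cells 476 ± 16.9 and in tuft-like cells 330 ± 16.9 CPM (SD, n = 4). Its partner Rps27 was nearly level between these classes, at 1711 ± 43.9 in transit-amplifying-like, 1682 ± 50.8 in Aire-stage and 1766 ± 24.4 in tuft-like cells, and was highest in thymocyte-like cells, at 3135 ± 663 CPM (SD, n = 4). The ratio of Rps27l to Rps27 UMIs was thus 0.856 ± 0.090 in ciliated-like, 0.364 ± 0.0080 in transit-amplifying-like, 0.283 ± 0.017 in Aire-stage, 0.187 ± 0.011 in tuft-like and 0.0788 ± 0.033 in thymocyte-like cells (SD, n = 4).

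Rps4l, annotated at chr6:148354656-148355598 on the plus strand as a transcribed processed pseudogene, differed between epithelial and blood-derived cells. It had 208 and 196 CPM in transit-amplifying-like cells of the spermidine samples and 218 and 222 in those of the PBS samples. The thymocyte-like cells of the spermidine samples had 69.3 and 15.3 CPM and those of the PBS samples 32.5 and 76.5, and the myeloid-like averages were near theirs, at 51.7 ± 25.6 (SD, n = 4). Among thymocyte-like samples Rps4l was lowest where Aire was lowest and highest where Aire was highest. Rps4x, the X-linked gene of the 40S protein, averaged 2650 ± 48.5 CPM in transit-amplifying-like and 640 ± 28.5 in tuft-like cells, so that Rps4l per Rps4x was 0.0796 ± 0.0039 in transit-amplifying-like and 0.324 ± 0.015 in tuft-like cells (SD, n = 4). Near-identical copies can exchange reads in 3' counting, and how reads that match several genes were treated is not given in the sources used here, so levels of Rps4l and the other processed pseudogenes are uncertain.

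Rpl22l1, the paralog of the RNA-binding 60S protein Rpl22, had similar ratios to it in transit-amplifying-like and enterocyte- or hepatocyte-like cells and lower mean ratios in the other classes. It averaged 918 ± 53.1 CPM in transit-amplifying-like, 401 ± 33.3 in Aire-stage and 259 ± 16.3 in tuft-like cells, and Rpl22 averaged 1561 ± 16.8, 1027 ± 79.4 and 501 ± 19.3 in the same classes (SD, n = 4). The ratio of Rpl22l1 to Rpl22 was 0.588 ± 0.034 in transit-amplifying-like, 0.581 ± 0.072 in enterocyte- or hepatocyte-like, 0.391 ± 0.018 in Aire-stage, 0.518 ± 0.023 in tuft-like and 0.259 ± 0.049 in myeloid-like cells (SD, n = 4). Rpl7l1, whose protein acts in the assembly of the large subunit, averaged 84.0 ± 6.1 CPM in transit-amplifying-like and 34.9 ± 1.9 in tuft-like cells (SD, n = 4). Its ratio to Rpl7 was 0.0639 ± 0.0056 in transit-amplifying-like and 0.10 ± 0.0031 in tuft-like cells (SD, n = 4).

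**Figure D3:**
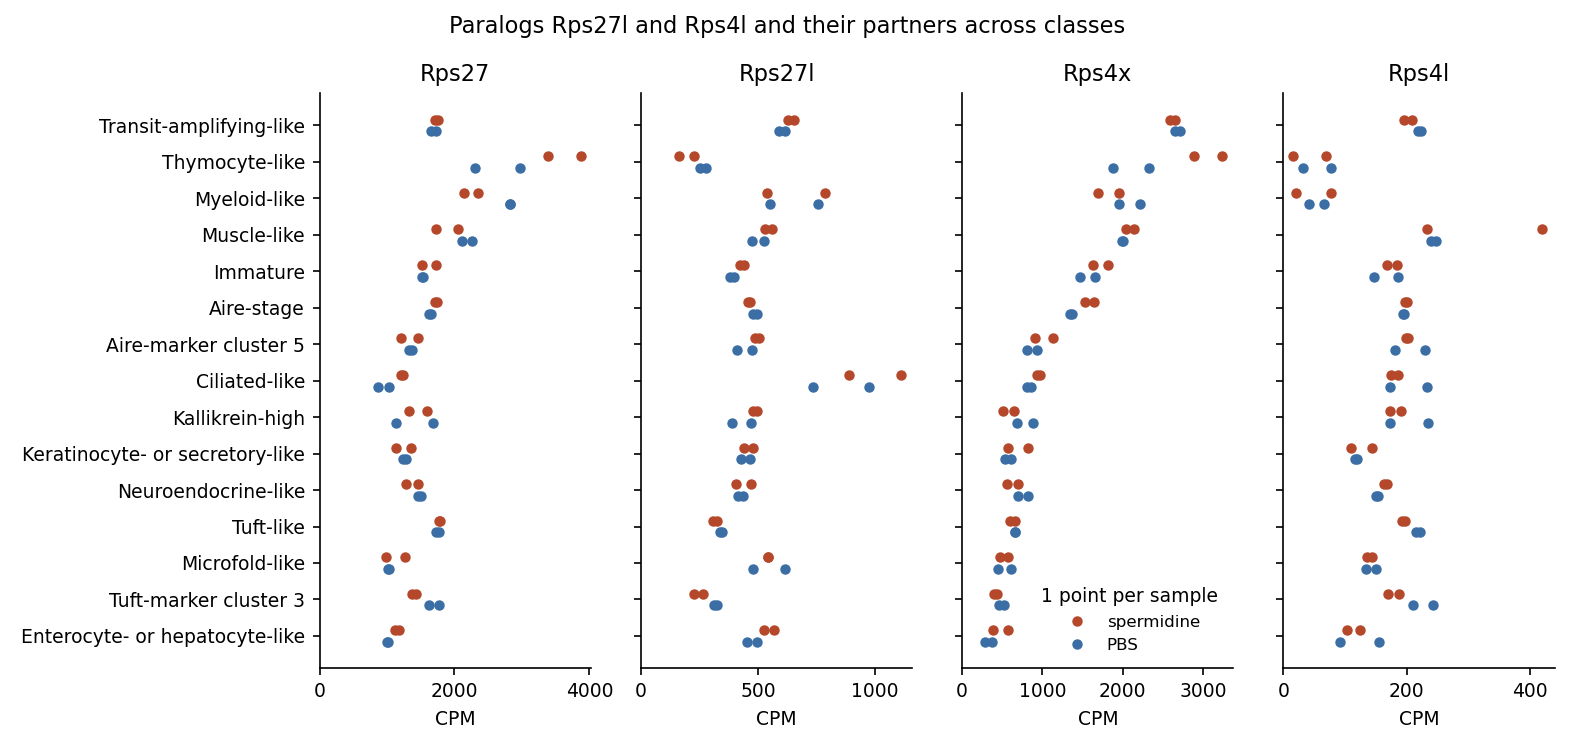
Levels of Rps27, Rps27l, Rps4x and Rps4l in CPM (x axes, each from 0) by class (y axis, ordered by family share), with 1 point per hashed sample. Rps4x is lower toward the bottom of the class order, Rps27 is nearly level between transit-amplifying-like, Aire-stage and tuft-like cells, Rps27l peaks in ciliated-like cells, and Rps4l is lowest in thymocyte- and myeloid-like cells.

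The balance of the subunits differed less than their sum. The ratio of 60S to 40S member UMIs was 1.18 ± 0.0014 in transit-amplifying-like, 1.21 ± 0.017 in immature, 1.24 ± 0.0082 in Aire-stage and 1.24 ± 0.0061 in tuft-like cells (SD, n = 4). It ranged from 1.12 ± 0.022 in thymocyte-like to 1.33 ± 0.044 in ciliated-like cells (SD, n = 4). These counts include processed pseudogenes and are not stoichiometries of protein.

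Other genes of the translation pathway had the same class order in part. Elongation and termination factors, 12 genes with the tRNA carrier Eef1a1 as the most abundant, took 0.932% ± 0.0038 of UMIs in transit-amplifying-like, 0.549% ± 0.044 in Aire-stage and 0.364% ± 0.018 in tuft-like cells (SD, n = 4). Ribosome biogenesis genes (49 genes, nucleolar factors and RNA polymerase I subunits) took 0.520% ± 0.019, 0.210% ± 0.0092 and 0.195% ± 0.0063 in the same classes (SD, n = 4). The 35 initiation factors took 0.863% ± 0.014, 0.690% ± 0.019 and 0.567% ± 0.016, and the 78 mitochondrial ribosomal protein genes 0.714% ± 0.0035, 0.523% ± 0.013 and 0.421% ± 0.026 (SD, n = 4). Growth signalling genes such as Mtor, Rptor and the Eif4ebp repressors did not follow it, with 0.0770% ± 0.0032, 0.0697% ± 0.0017 and 0.0815% ± 0.0021 (SD, n = 4). Further classes broke the order. Ciliated-like cells had the highest mean for mitochondrial ribosomal protein genes, 0.825% ± 0.092, and 0.331% ± 0.073 for biogenesis genes (SD, n = 4). Immature cells had means below Aire-stage cells for initiation factors, 0.636% ± 0.031, and mitochondrial ribosomal protein genes, 0.505% ± 0.019 (SD, n = 4).

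Over all kept cells, the ribosomal protein share was higher in both spermidine samples. It was 11.1% and 10.8% in the spermidine samples and 8.71% and 9.62% in the PBS samples, a difference of 1.75 percentage points without overlap. The two-sided exact permutation test gave p = 0.333, the smallest value that 2 samples against 2 can give. Of the 85 members, all of which passed the filter on low counts, 83 had a higher fitted level with spermidine and the median log2 fold change was 0.30, beside 0.0051 over 22660 genes. The ranges of 81 members were higher without overlap, against 26.0% of all genes. The members were measured in the same samples and moved together. Counts of members, here and in the classes below, are therefore not independent observations and do not stand in for replicates. At the level of single tests, 70 members had an unadjusted p under 0.05 in edgeR's quasi-likelihood test, against 9.81% of genes that were higher; no member was lower so, against 8.24% of genes. After Benjamini-Hochberg adjustment over all genes 0 members passed 0.05, as did 0.00% of all genes, and the smallest adjusted p of a member in edgeR's test was 0.139. Without the low-count filter 62 members were called higher, against 4.68% of genes, without PBS replicate 2 there were 72, against 1.64%, and DESeq2 called 43, against 2.10%.

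Members with the smallest p in all kept cells were Rps6, Rpl13a, Rplp0, Rpsa and Rpl36a. Levels in the treatment comparisons are CPM scaled by TMM factors, which correct for differences in RNA composition. Rplp0 had 1921 and 1847 in the spermidine samples and 1267 and 1484 in the PBS samples, a log2 fold change of 0.45 ± 0.10 (SE, edgeR adjusted p = 0.146). Rpsa had 1754 and 1662 in the spermidine samples and 1180 and 1366 in the PBS samples, a log2 fold change of 0.42 ± 0.099 (SE, edgeR adjusted p = 0.152). Rps6 had 400 and 385 in the spermidine samples and 283 and 315 in the PBS samples, a log2 fold change of 0.39 ± 0.080 (SE, edgeR adjusted p = 0.139). In each of these members both spermidine samples lay above both PBS samples, which their choice by smallest p favours. Rps27, nearly level between those mTEC classes, had a smaller fitted difference, with 1667 and 1622 in the spermidine samples and 1528 and 1574 in the PBS samples, a log2 fold change of 0.084 ± 0.073 (SE, edgeR adjusted p = 0.595). The 2 members with a lower fitted level, Rps4l and the pseudogene Rpl32l, overlapped between treatments: Rps4l had 189 and 181 in the spermidine samples and 174 and 197 in the PBS samples.

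The mix of classes moved with this difference. Transit-amplifying-like cells averaged 12.9% of spermidine and 7.60% of PBS cells, Aire-stage cells 23.4% and 14.7%, and tuft-like cells 15.3% and 21.1%, and sorting and pooling can set these shares. Marker sums moved likewise: the 12 transit-amplifying markers summed to 1031 and 906 CPM in the spermidine samples and to 721 and 850 in the PBS samples, with 11 of 12 higher. The 15 tuft markers summed to 2640 and 2748 CPM in the spermidine samples and to 4914 and 3869 in the PBS samples, with 0 of 15 higher and none at 0. The 13 thymocyte markers summed to 149 and 140 CPM in the spermidine samples and to 112 and 90.0 in the PBS samples, with 12 of 12 tested markers higher. Erythroid markers were uneven, at 145 and 396 CPM in the spermidine samples and 60.5 and 57.2 in the PBS samples.

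With the UMI shares of the 15 classes held at their mean over the 4 samples, the ribosomal protein share became 10.3% and 10.1% in the spermidine samples and 9.65% and 9.91% in the PBS samples. The difference was then 0.406 percentage points, still without overlap (exact permutation p = 0.333). With the shares of the 19 clusters held, an alternative chosen after seeing the data, the values were 10.2% and 10.0% in the spermidine samples and 9.71% and 9.99% in the PBS samples, a difference of 0.258 percentage points.

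**Figure D4:**
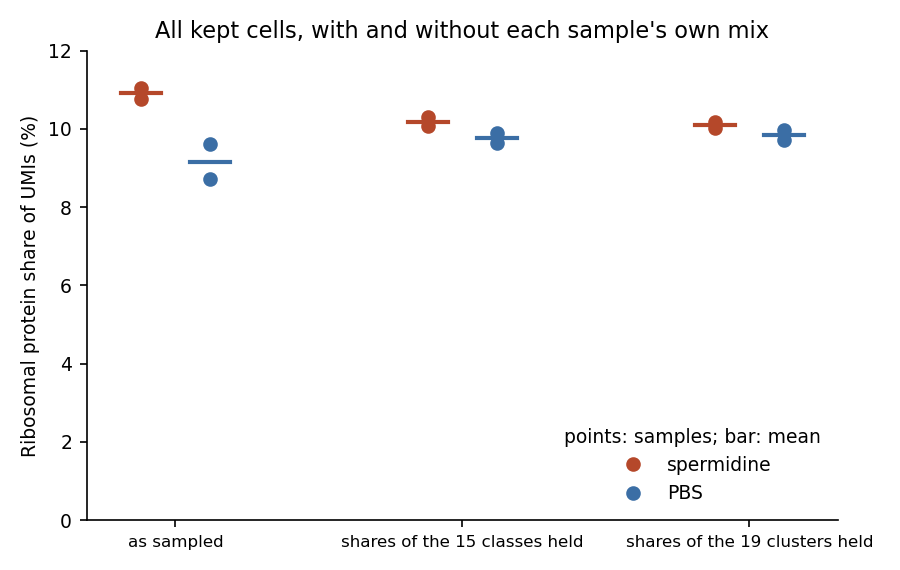
Ribosomal protein share of UMIs in all kept cells (y axis, percent, from 0) as sampled, with the UMI shares of the 15 classes held and with those of the 19 clusters held, with 1 point per sample, bars at the means, and spermidine left of PBS. The gap of 1.75 percentage points as sampled becomes 0.406 with class shares held and 0.258 with cluster shares held.

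Within Aire-stage cells the members were again higher with spermidine as a group of small differences, none of which passed adjustment. The share differed by 1.36 percentage points without overlap (exact permutation p = 0.333). Of 83 members that passed the low-count filter (Rpl32l and Rps3a2 did not), 80 had a higher fitted level, with a median log2 fold change of 0.18, beside -0.0019 over 17132 genes. In 77 members both spermidine values lay above both PBS values, against 18.7% of genes, and 29 members had an unadjusted p under 0.05 in edgeR's quasi-likelihood test, against 3.54% of genes that were higher. Adjusted over all genes, 0 members passed, as did 0.00% of genes, and the smallest edgeR adjusted p was 0.743. DESeq2 also called 0, against 0.227% of genes higher, with 22 members under an unadjusted 0.05, against 2.39%. Without the low-count filter edgeR called 9 members, against 1.67% of genes. The median was 0.11 without spermidine replicate 1.

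In the Aire-stage class the members with the smallest p were Rpl27a, Rpl8, Rplp0, Rpl11 and Rpsa. Rpl11, which with Rpl5 binds the 5S RNA and can restrain Mdm2, had 1874 and 1779 TMM-scaled CPM in the spermidine samples and 1563 and 1577 in the PBS samples, a log2 fold change of 0.22 ± 0.063 (SE, edgeR adjusted p = 0.743). Rplp0 had 2457 and 2225 in the spermidine samples and 1986 and 1895 in the PBS samples, a log2 fold change of 0.27 ± 0.077 (SE, edgeR adjusted p = 0.743). Rpsa had 1878 and 1651 in the spermidine samples and 1477 and 1342 in the PBS samples, a log2 fold change of 0.32 ± 0.095 (SE, edgeR adjusted p = 0.743). None of these overlapped between treatments, but their choice by smallest p favours such separation, so no test is drawn from it. The 3 members with a lower fitted level were Rps27l and the pseudogenes Rpl6l and Rps3a3, and Rps27l had 470 and 466 in the spermidine samples and 483 and 502 in the PBS samples, a log2 fold change of -0.074 ± 0.066 (SE, edgeR adjusted p = 0.905).

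The Aire-stage class itself held a mix that differed between samples. Cluster 2 made up 60.7% and 50.4% of its cells in the spermidine samples and 47.0% and 46.8% in the PBS samples. With the 2 clusters' UMI shares held, an alternative chosen after seeing the data, the difference of 1.36 percentage points became 0.761. In cluster 2 alone the share was 14.4% and 13.8% in the spermidine samples and 13.1% and 12.8% in the PBS samples, and 81 of 82 members tested had a higher fitted level (median log2 fold change 0.12). In it 73 members were higher without overlap, against 17.9% of genes, 17 had an unadjusted p under 0.05, against 2.89% of genes, and 0 were called by edgeR or DESeq2, against 0.00% of genes by edgeR and 0.214% by DESeq2. Without the low-count filter 3 were called, against 1.33% of genes. Cluster 1 had overlapping shares, 7.21% and 7.86% in the spermidine samples and 7.75% and 7.35% in the PBS samples, and 34 of 81 members had a higher fitted level. Beside this, the 15 tuft markers summed to 300 and 506 CPM in Aire-stage cells of the spermidine samples and to 809 and 608 in those of the PBS samples, and 2 of 14 tested were higher. Thymocyte markers summed to 97.1 and 73.6 CPM in the spermidine samples and to 38.5 and 44.3 in the PBS samples, with 8 of 9 tested higher. The 12 transit-amplifying markers overlapped, at 288 and 255 CPM in the spermidine samples and 349 and 249 in the PBS samples. The part of these markers in the result was not tested.

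The remaining classes had fitted differences of both signs. Immature cells had 79 of 81 members with a higher fitted level in the spermidine samples, a median log2 fold change of 0.16, and 60 members without overlap, against 17.7% of genes. Rpl11 had there 2013 and 1868 TMM-scaled CPM in the spermidine samples and 1570 and 1654 in the PBS samples, a log2 fold change of 0.27 ± 0.10 (SE, edgeR adjusted p = 0.835). Leaving out spermidine replicate 1 gave an immature median of 0.098 and a share difference of 0.626 percentage points, and doublets called over 6 hashtags gave 0.0764 and 0.648. Beside this, transit-amplifying markers in immature cells summed to 621 and 589 CPM in the spermidine samples and to 1068 and 612 CPM in the PBS samples, with 1 of 9 tested higher, and their part in the result was not tested. Transit-amplifying-like cells had 48 of 82 members with a higher fitted level and a median of 0.0076, and their shares overlapped. Tuft-like cells had 25 of 81 higher and a median of -0.023, also with overlapping shares. Leaving out PBS replicate 1 gave 16 such members in transit-amplifying-like cells, and leaving out PBS replicate 2 gave 73. In tuft-like cells there were 64 when spermidine replicate 1 was left out and 9 when spermidine replicate 2 was. In these classes 0 members were called by edgeR or DESeq2, as were 0.00% of genes upward and 0.0195% downward in immature cells, 0.00% in transit-amplifying-like cells, and 0.109% upward and 0.0234% downward in tuft-like cells. DESeq2 called 0.00436% of genes upward and 0.0131% downward in immature cells, over 22930 genes where edgeR tested 10243. It called 0.0723% and 0.188% in transit-amplifying-like, and 0.148% and 0.0444% in tuft-like cells. At an unadjusted p under 0.05 there were 6 members in immature cells, where 2.62% of genes were higher so. There were 0 in transit-amplifying-like cells, where 3.48% of genes were higher and 4.19% lower so, and 0 in tuft-like cells, where 5.29% were higher and 4.32% lower so.

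Tuft-marker cluster 3, with 107 and 62 cells in the spermidine samples and 141 and 92 in the PBS samples, was lower in both spermidine samples. Its ribosomal protein share was 4.62% and 4.75% in the spermidine samples and 5.80% and 5.25% in the PBS samples. None of its 81 members tested had a higher fitted level, the median log2 fold change was -0.22, and 63 members were lower without overlap, against 20.2% of genes. By edgeR's unadjusted p under 0.05, 34 were lower, against 4.46% of genes, and 0 passed adjustment, as did 0.00% of genes that were lower. DESeq2 also called 0, as it did 0.00% of genes that were lower, with 24 members under an unadjusted 0.05, against 0.385%. The DESeq2 shares are over 23391 genes and those of edgeR over 10315, so they are not directly comparable. Without the low-count filter edgeR called 6 members, against 0.235% of genes. Rps28, a small 40S protein, had 532 and 507 TMM-scaled CPM in the spermidine samples and 714 and 658 in the PBS samples, a log2 fold change of -0.40 ± 0.10 (SE, edgeR adjusted p = 0.289). Rpl22l1 had 161 and 201 in the spermidine samples and 246 and 253 in the PBS samples, a log2 fold change of -0.48 ± 0.13 (SE, edgeR adjusted p = 0.301). Rps28 was chosen after its values were seen. Tuft markers in this cluster were near level, at 15461 and 16118 CPM in the spermidine samples and 16736 and 15813 in the PBS samples.

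**Figure D5:**
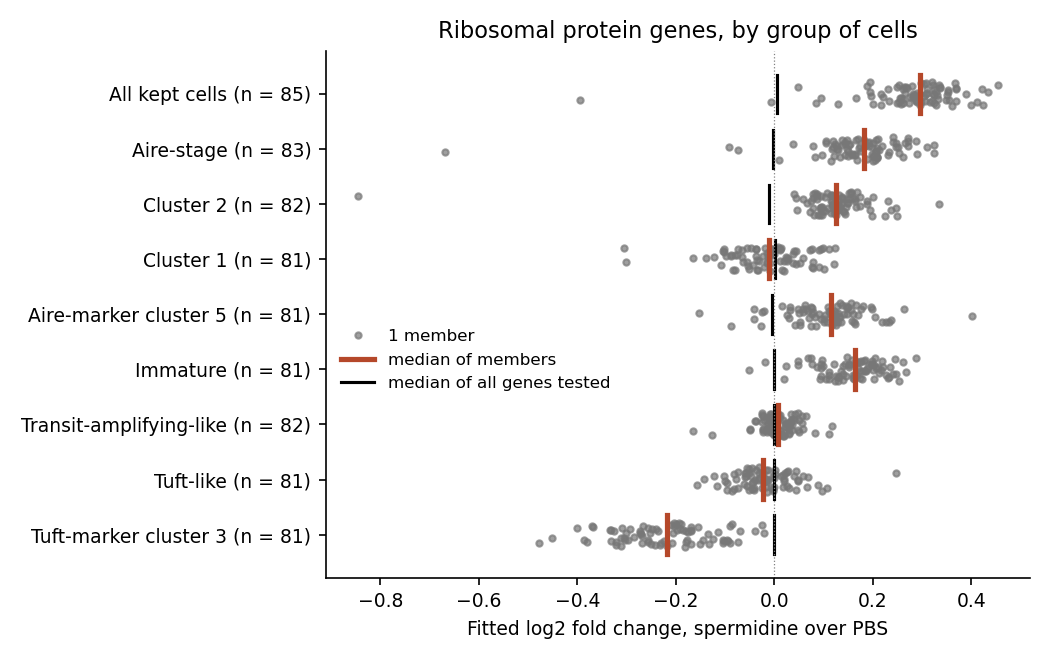
Fitted log2 fold change of each member, spermidine over PBS (x axis), in all kept cells and in 8 groups of cells (y axis, with the number of members tested), with 1 grey point per member, a red bar at the median of the members and a black bar at the median of all genes tested. The members' median lies at 0.30 in all kept cells, 0.18 in Aire-stage cells, near 0 in transit-amplifying-like and tuft-like cells and at -0.22 in tuft-marker cluster 3.

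The difference of the Aire-stage and tuft-like treatment effects was fitted directly, with the hashed sample as a block. Of 83 members tested, 80 had a larger fitted effect in Aire-stage cells, with a median difference of 0.21 on the log2 scale, beside -0.0078 over 17431 genes. By edgeR's quasi-likelihood test 0 members passed adjustment, as did 0.00% of genes, and 0 had an unadjusted p under 0.05, where 2.44% of genes were higher so. With doublets called over 6 hashtags there were 8 such members, against 3.20% of genes. The median difference was 0.076 without spermidine replicate 1 and 0.35 without spermidine replicate 2. DESeq2 was not run on it.

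Related translation genes had smaller median differences than the members in Aire-stage cells. Of 35 initiation factors 27 had a higher fitted level (median log2 fold change 0.050), of 12 elongation and termination factors 9 (0.14), of 49 biogenesis genes 34 (0.066), of 77 mitochondrial ribosomal protein genes 45 (0.021), of 17 growth signalling genes 8 (-0.058) and of 11 other ribosome-linked genes 9 (0.064), and 0 of these were called by edgeR. At an unadjusted p under 0.05 the 6 lists had 2, 2, 1, 1, 0 and 1 genes higher, against 3.54% of genes, and 0, 0, 0, 0, 0 and 1 lower, against 2.56%. Eif3e, a subunit of the initiation factor that binds the 40S subunit, had 357 and 307 TMM-scaled CPM in the spermidine samples and 263 and 260 in the PBS samples (log2 fold change 0.34 ± 0.099, SE, edgeR adjusted p = 0.743). Eef1a1 had 3512 and 3167 in the spermidine samples and 2935 and 2808 in the PBS samples (log2 fold change 0.22 ± 0.077, SE, edgeR adjusted p = 0.790). Npm1, a nucleolar chaperone of ribosome assembly, had 567 and 549 in the spermidine samples and 496 and 444 in the PBS samples (log2 fold change 0.25 ± 0.083, SE, edgeR adjusted p = 0.773). Rack1, a 40S-bound scaffold protein, had 994 and 907 in the spermidine samples and 858 and 819 in the PBS samples (log2 fold change 0.18 ± 0.077, SE, edgeR adjusted p = 0.820). Sbds, which releases Eif6 from the new 60S subunit, had 73.0 and 83.8 in the spermidine samples and 94.8 and 98.9 in the PBS samples (log2 fold change -0.31 ± 0.11, SE, edgeR adjusted p = 0.807). None of the 5 overlapped between treatments, where 18.7% of all genes tested were higher without overlap. The 5 came from the genes named on each side of these lists. That choice favours such separation, so no test is drawn from it.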

How the data were processed

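Deposited raw counts of UMIs came from Cell Ranger 7.1.0, per the file headers; mm10, bcl2fastq and Seurat are named in the submitters' processing notes. Of 12139 barcodes, 8534 had at least 1000 UMIs, 500 genes and under 15% mitochondrial UMIs. HTODemux (Seurat 5.3.0, quantile 0.99) assigned 4709 of these to 1 of the 4 samples and left out 1027 doublets and 2798 negatives. With HT6 and HT7 included, 897 of the 4709 were doublets, which the 6-hashtag alternative leaves out. No doublet caller on RNA was run. Cells were clustered in scanpy 1.11.5 without the member genes (counts per 10000, 2000 variable genes, 30 components, 15 neighbours, Leiden resolution 1), and the 19 clusters gave 15 classes from 21 marker lists. Counts were summed per sample and class. Classes with at least 20 cells in each sample entered a quasi-likelihood fit (edgeR 4.0.16, R 4.3.3, TMM, filterByExpr with minimum count 10 and total 15, Benjamini-Hochberg at 0.05 over all genes), which was tested on simulated data. Shares were compared by exact permutation.

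Members, marker lists and gene lists were chosen with earlier results of these data known. Named members were the paralogs, the 5 with most and the 3 with fewest UMIs, the 5 with the smallest p in each direction in all kept and Aire-stage cells, the 5 most and 5 least variable across classes, the P stalk genes, Rps27a and those beside the 100-UMI limit, and the 3 genes on each side of each related list; others are marked. Depth was 17668782 to 25673749 UMIs per sample. Alternatives were DESeq2 1.42.0, other scalings, filters, hashtag rules, clusterings and left-out samples.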

Additional observations from a re-analysis of the deposited data

Results flagged for a closer look

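The difference in ribosomal protein share, spermidine minus PBS, went one way in both spermidine samples in some groups of cells and the other way in others, each without overlap. It was 1.36 percentage points in Aire-stage cells, 1.21 in cluster 2 of that class, 1.24 in immature, 1.49 in ciliated-like, 1.10 in enterocyte- or hepatocyte-like and 5.25 in thymocyte-like cells. It was -0.836 percentage points in tuft-marker cluster 3, -2.88 in myeloid-like cells and -0.601 in cluster 14, the part of the transit-amplifying-like class led by histone genes. Between groups, Aire-stage minus tuft-like cells differed by 1.52 percentage points over samples (exact permutation p = 0.333, the smallest possible). Cluster 2 minus cluster 3 differed by 2.04, immature cells minus cluster 3 by 2.08 and thymocyte-like minus myeloid-like cells by 8.14. Each of these latter pairs joined a group that was higher in both spermidine samples to a group that was lower in both. The choice of groups thus fixed their lack of overlap, so no test is drawn from them. Differences between the other groups were not tested. Ciliated-like cells numbered 8 to 23 per sample, thymocyte-like cells 15 to 52 and myeloid-like cells 17 to 26. Aire in the thymocyte-like cells was 334 and 26.7 CPM in the spermidine samples and 286 and 553 CPM in the PBS samples. Only its lowest and highest samples were opposite to those of the thymocyte-like share. In myeloid-like cells Aire was 32.1 and 11.3 CPM in the spermidine samples and 56.3 and 52.2 CPM in the PBS samples. The part of mTEC RNA in these differences was not tested.

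Hashtags HT6 and HT7 have no sample in the labels and carried 1187 and 1219 kept cells, with ribosomal protein shares of 9.22% and 10.3%. The HT7 value lies above both PBS samples and below both spermidine samples.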

How the results depend on the processing

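Over all kept cells 0 members were called by edgeR, but 62 without the low-count filter and 43 with DESeq2, and 0 to 72 with 1 sample left out, the 72 without PBS replicate 2. Without the filter 9 members (1.67% of genes) were called in Aire-stage cells, 3 (1.33%) in cluster 2 and 6 (0.235%) in cluster 3. In the same Aire-stage fit 1 initiation factor was called, where 1.67% of genes were called higher. With 1 sample left out, calls ranged from 0 to 1 in immature cells and 0 to 4 in cluster 3 (2 without spermidine replicate 1), and were 0 in Aire-stage, transit-amplifying-like and tuft-like cells. The Aire-stage median of 0.18 ranged from 0.11 to 0.24 (0.106 without spermidine replicate 1), the cluster 2 median from 0.088 to 0.177, the tuft-like median from -0.109 to 0.037 and the Aire-stage minus tuft-like median from 0.076 to 0.35. With 6 hashtags the median was 0.0764 in immature cells and 0.0800 in cluster 2. The transit-amplifying-like share difference of 0.189 percentage points turned to -0.183 with 6 hashtags and to -0.432 as a mean over cells, and ranged from -0.136 to 0.515 with 1 sample left out. The tuft-like difference of -0.167 ranged from -0.469 to 0.136. Members with a higher level numbered 16 to 73 in transit-amplifying-like cells (19 with 6 hashtags), 9 to 64 in tuft-like cells (11 with member genes in the clustering, 11 at resolution 0.5, 10 with cluster 3 joined) and 0 to 10 in cluster 3 (2 without the filter, 2 with DESeq2). The transit-amplifying-like minus tuft-like share was 12.03 percentage points at resolution 0.5 and 12.2 as a mean over cells. Of the values compared, 467 kept their direction and side of the threshold, 31 were scored as moved and 4 as reversed. Of 1108 values of named genes, 20 in 6 genes changed sign and 70 passed the threshold newly. Same-numbered samples did not deviate together (correlations of -0.0013 over all kept cells and 0.0014 in Aire-stage cells, 2 pairs), and with the replicate block 0 members were called in any class and the all-cell median was 0.30. Where calls or signs changed, the cause was not tested, and 2 samples a group limit every comparison.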

Other observations

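Thymocyte-like cells had the highest ribosomal protein share under both unlabelled hashtags, at 22.5% in HT6 (31 cells) and 19% in HT7 (6 cells). Transit-amplifying-like cells had 16.8% in HT6 (85 cells) and 17.7% in HT7 (133 cells), and myeloid-like cells 17.5% (21 cells) and 14.1% (11 cells). Aire-stage cells had 9.81% and 11.9%, and tuft-like cells 6.42% and 6.69%, so these mTEC classes stood in the order of the labelled samples.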
